A study of Mus musculus with 26 samples.

Results

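The 45 genes described here are the Wnt ligands, their receptors and co-receptors, the R-spondins, the secreted Dickkopf and frizzled-related antagonists, and the target genes Axin2 and Lef1. They were taken by name from the protein-coding genes of both deposited tables, and they are 45 of 54532 genes listed, of which 22046 are protein-coding. Of these, 19 encode Wnt ligands, 12 encode receptors (10 frizzled proteins with Lrp5 and Lrp6), 3 encode R-spondins, 9 encode antagonists (Dkk1 to Dkk4, Sfrp1, Sfrp2, Sfrp4, Sfrp5 and Frzb) and 2 are targets. The rule that chose them used no measured value, but it was set with earlier results of these data known.

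The study asked what loss of Traf7, a ring-finger ubiquitin ligase, does to gene expression in the embryonic day 9.5 (E9.5) mouse. Whole embryos freed of the yolk sac were sequenced in 4 groups without any treatment. Traf7-GLOko embryos (6, global knockout) carried on both alleles the deletion that E2a-Cre, driven by the adenovirus EIIa promoter in nearly all cells of the early embryo, makes in the floxed Traf7 gene, and they were compared with 6 wild-type (WT) embryos. Traf7-ECko embryos (7) lacked Traf7 in cells of the Tie2-Cre lineage, which covers endothelium and also blood cells and endocardium. They were compared with 7 Traf7-EChet embryos, the heterozygous controls of the endothelial knockout. These also carry Tie2-Cre, and after its deletion they differ from ECko embryos by a single Traf7 copy per cell. All mice were on a C57BL/6 background, males and females were both used, and the labels name no litters. All other cells of an ECko embryo keep the gene, so that a change confined to endothelium is diluted in RNA of the whole embryo. In such RNA, fewer cells of a type and less RNA per cell cannot be told apart.

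Wnt proteins are secreted lipid-modified ligands. In the canonical branch a Wnt binds a frizzled receptor together with Lrp5 or Lrp6, the destruction complex of Axin and Apc is inhibited, and beta-catenin enters the nucleus, where it activates genes with factors of the TCF/LEF family. Dkk proteins bind the LRP co-receptors, Sfrp proteins and Frzb bind Wnts, and R-spondins raise receptor levels at the cell surface. Axin2 is the most widely used readout of the canonical branch, and Lef1 is both a target and a nuclear partner of beta-catenin. At midgestation Wnt1 and Wnt3a mark the dorsal neural tube, Wnt3a also the tailbud, and Wnt2 and Wnt11 are found in the region of the heart.

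Deposited values were FPKM (fragments of a gene for its length in kilobases, relative to library size), and 16662293 to 25364652 reads per library lay in genes. Traf7 itself was 1.75 to 3.12 FPKM in GLOko and 11.1 to 20.7 FPKM in WT (log2 difference -2.85, exact permutation p = 0.00216, the smallest that 6 against 6 allows). The library labelled WT 4 had the 11.1 FPKM, and the other 5 WT libraries had 18.9 to 20.7. In ECko, Traf7 was 13.6 to 20.4 FPKM against 18.8 to 22.7 in EChet (log2 difference -0.24, exact permutation p = 0.00699, limma adjusted p = 0.203, not called). Of the 7 cardiomyocyte markers, the summed level was 17.1 FPKM in GLOko 1, 46.7 in WT 4, 48.0 in ECko 3 and 72.0 in ECko 4, and 238 to 1259 FPKM in the other GLOko, WT and ECko embryos. GLOko 1 and GLOko 6 had the fewest genes with reads (16826 and 17012 at equal depth), and the other 10 libraries of that table had 18624 to 19813. The 6 markers of yolk sac endoderm summed to 415 FPKM in GLOko 5 and 98.4 in GLOko 4, and to 2.30 to 23.3 in WT. Values without these libraries are given where they change a call.

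RefSeq promoter sequences (build GRCm38.p6, 250 bases before to 50 bases after the start that RefSeq gives) were found for 29 of the 45 members. The core CTTTG, which TCF and LEF factors bind, was searched on both strands (CTTTG or CAAAG). It occurred in 14 of the 29 members (48.3%) and in 53.9% of all 32851 promoters. The windows of both readout genes, Axin2 and Lef1, and of Wnt1, Wnt9a and Wnt3, the ligands furthest above the WT mean in GLOko 2, the embryo that stood apart, are given in the sense of the gene with the core in capitals. The RefSeq start lay 148 bases from the deposited one for Lef1, whose window ends before the latter, 25 for Wnt3, 2 for Wnt9a and 0 for Axin2 and Wnt1.
Axin2 (chr11:108920099-108920398, plus strand): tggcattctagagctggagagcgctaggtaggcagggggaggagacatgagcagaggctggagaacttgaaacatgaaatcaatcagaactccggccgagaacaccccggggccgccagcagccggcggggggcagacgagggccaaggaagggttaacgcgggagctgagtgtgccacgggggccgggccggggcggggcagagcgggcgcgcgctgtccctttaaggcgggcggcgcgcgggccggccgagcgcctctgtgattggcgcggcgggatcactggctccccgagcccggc
Lef1 (chr3:131110073-131110372, plus strand): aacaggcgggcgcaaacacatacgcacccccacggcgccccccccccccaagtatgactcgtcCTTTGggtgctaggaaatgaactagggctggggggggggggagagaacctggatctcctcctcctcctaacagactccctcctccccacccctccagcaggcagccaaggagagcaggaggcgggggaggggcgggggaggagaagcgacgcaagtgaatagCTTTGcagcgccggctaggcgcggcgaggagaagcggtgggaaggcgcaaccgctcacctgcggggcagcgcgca
Wnt1 (chr15:98789607-98789906, plus strand): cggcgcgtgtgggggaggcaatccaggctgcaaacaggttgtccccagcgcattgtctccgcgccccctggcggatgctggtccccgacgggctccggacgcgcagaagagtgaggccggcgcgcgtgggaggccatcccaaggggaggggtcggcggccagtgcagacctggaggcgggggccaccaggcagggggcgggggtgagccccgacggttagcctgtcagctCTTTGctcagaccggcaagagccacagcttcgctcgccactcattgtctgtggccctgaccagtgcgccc
Wnt9a (chr11:59306680-59306979, plus strand): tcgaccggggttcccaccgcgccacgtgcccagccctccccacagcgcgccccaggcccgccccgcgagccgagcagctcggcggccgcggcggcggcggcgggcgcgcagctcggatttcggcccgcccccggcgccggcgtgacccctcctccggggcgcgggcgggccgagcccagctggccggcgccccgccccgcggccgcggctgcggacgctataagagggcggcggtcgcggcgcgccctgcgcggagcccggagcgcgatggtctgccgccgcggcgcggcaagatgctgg
Wnt3 (chr11:103773925-103774224, plus strand): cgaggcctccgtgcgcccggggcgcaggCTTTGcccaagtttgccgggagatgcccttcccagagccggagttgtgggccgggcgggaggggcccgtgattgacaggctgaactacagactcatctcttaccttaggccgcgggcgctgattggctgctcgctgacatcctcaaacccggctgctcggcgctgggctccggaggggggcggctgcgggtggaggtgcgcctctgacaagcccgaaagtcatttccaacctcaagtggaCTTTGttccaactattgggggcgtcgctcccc
The core occurred 0 times in the Axin2 window, 2 times in that of Lef1, 1 time in that of Wnt1, 0 times in that of Wnt9a and 2 times in that of Wnt3. The core ACGTG (or CACGT) of hypoxia response elements occurred in 5 of the 29 members and in 19.6% of all promoters, and of the windows shown in that of Wnt9a alone. Its 2 matches there are the same CACGTG read on both strands. The core CACCC (or GGGTG) bound by Klf factors occurred in 21 of the 29 members (72.4%) and in 57.5% of all promoters, and 1 of the Lef1 matches overlapped it. A match is a description of these letters and not evidence of binding.

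In WT embryos the receptors were the most abundant class. Summed over their members, receptors had 200 ± 13.8 FPKM (mean ± SD, n = 6), antagonists 135 ± 6.60, ligands 90.7 ± 12.1, the targets 19.3 ± 1.89 and R-spondins 14.2 ± 2.10. Fzd2 (59.9 ± 6.82 FPKM), Sfrp2 (56.6 ± 6.99), Sfrp1 (48.9 ± 4.02) and Fzd7 (42.3 ± 2.40) led the order, and the ranges of neighbours in it overlapped. Fzd7 was apart from the next gene, Fzd10 (28.1 ± 4.70), and from there down the ranges of all neighbours overlapped. Wnt6, a ligand of surface ectoderm, was the most abundant ligand (19.8 ± 4.01 FPKM), followed by Wnt5a (11.9 ± 2.30), the main ligand of the non-canonical branch. Of the classical canonical ligands, Wnt1 had 5.69 ± 1.65, Wnt3a 5.22 ± 1.86 and Wnt3 2.07 ± 0.507 FPKM. The lowest ligands were Wnt10b (0.291 ± 0.135), Wnt8a (0.349 ± 0.210), Wnt10a (0.450 ± 0.174) and Wnt16 (0.732 ± 0.327). Lrp5 (8.94 ± 1.35) and Lrp6 (8.02 ± 0.481) were close to each other.

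Of the 45 members, 43 had a mean of at least 0.1 FPKM in both tables and were tested. Dkk4 and Sfrp4 did not: Dkk4 had 0 to 9 reads and Sfrp4 0 to 10 reads in each of the 26 libraries.

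The global knockout was compared with WT to find whether loss of Traf7 in the whole embryo came with a change in this gene set. Of the 43 members, 1 reached an adjusted p of 0.05, the threshold for a call (2.33%), whereas 10.4% of all genes tested were called, 5.42% higher and 5.01% lower. This was Lrp6, the co-receptor, which was higher in GLOko. No ligand, R-spondin, antagonist or target was called, and the median log2 difference of the members was 0.06 (range -0.80 to 0.72), with 24 above 0 and 19 below, against 0.01 over all genes tested. At an unadjusted p under 0.05 there were 9 of the 43, against 28.3% of all genes. These were 2 of 19 ligands, 5 of 12 receptors, 1 of 3 R-spondins, 1 of 7 antagonists and 0 of 2 targets.

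Lrp6 (chr6:134446476-134566965, minus strand) had 12.1, 12.8, 11.3, 9.82, 10.1 and 9.17 FPKM in GLOko 1 to 6, from 2450 to 3317 reads each. In WT 1 to 6 it had 8.45, 7.53, 7.68, 8.51, 8.42 and 7.55 FPKM. Every GLOko embryo lay above every WT embryo, and Lrp6 was the only one of the 45 members without overlap, as were 8.71% of all genes tested. The mean rose by 0.45 on the log2 scale (SE 0.10, limma adjusted p = 0.0186, exact permutation p = 0.00216). The call held without each of the 12 embryos in turn (0.40 to 0.50, limma adjusted p 0.0135 to 0.0491), and without WT 4 the difference was 0.46 (limma adjusted p = 0.0383). It was lost without GLOko 1 and WT 4 together (0.43, limma adjusted p = 0.0595) and when the count of genes detected per library entered the model (0.44, limma adjusted p = 0.0577). Genes of the hypoxia response, a list chosen with earlier results of these data known, rose in the same embryos. Of this list 10 of 10 were called, against 10.4% of all genes, and the median log2 difference was 2.03. The mean over the list lay 1.15 to 3.31 above the WT mean in GLOko and -0.36 to 1.05 from it in WT. In GLOko 1 to 6 that mean was 2.38, 3.31, 2.21, 1.15, 1.88 and 1.75. The part of these genes in the Lrp6 difference was not tested.

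Fzd10 (chr5:128600844-128604093), a frizzled receptor of the dorsal neural tube, came next by p. It had 18.1, 14.9, 24.0, 23.9, 20.1 and 23.4 FPKM in GLOko 1 to 6 and 23.2, 26.5, 28.7, 26.4, 27.0 and 37.0 in WT 1 to 6. All 6 GLOko embryos lay below the WT mean, and 3 of them lay below every WT embryo. The log2 difference was -0.42 ± 0.13 (SE), with a limma adjusted p of 0.0568 and an exact permutation p of 0.00866, so that it was not called. It passed when only genes of at least 1 FPKM were tested (adjusted p = 0.0435) and with limma-voom on the reads behind the FPKM (adjusted p = 0.0488). Of the 12 embryos left out in turn, only the omission of GLOko 4 made it pass (adjusted p = 0.0440). Without GLOko 1, 2 and 6 it was -0.28 (adjusted p = 0.168).

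Rspo3 (chr10:29452416-29535867), the R-spondin of vascular and placental development, had 10.0, 13.5, 6.62, 7.66, 8.93 and 12.5 FPKM in GLOko 1 to 6. In WT 1 to 6 it had 7.19, 4.99, 4.36, 5.14, 8.31 and 7.96 FPKM. Again 6 of 6 GLOko embryos lay above the WT mean and 4 lay above every WT embryo. The log2 difference was 0.65 ± 0.21 (SE, limma adjusted p = 0.0603, exact permutation p = 0.0238), which did not pass, and it passed under the same pair of alternatives (adjusted p = 0.0470 and 0.0485) and without GLOko 3 or GLOko 4 (lowest adjusted p = 0.0446). Without GLOko 1, 2 and 6 it was 0.34 (adjusted p = 0.313). Rspo1 and Rspo2 had log2 differences of -0.09 and 0.14.

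**Figure D1:**
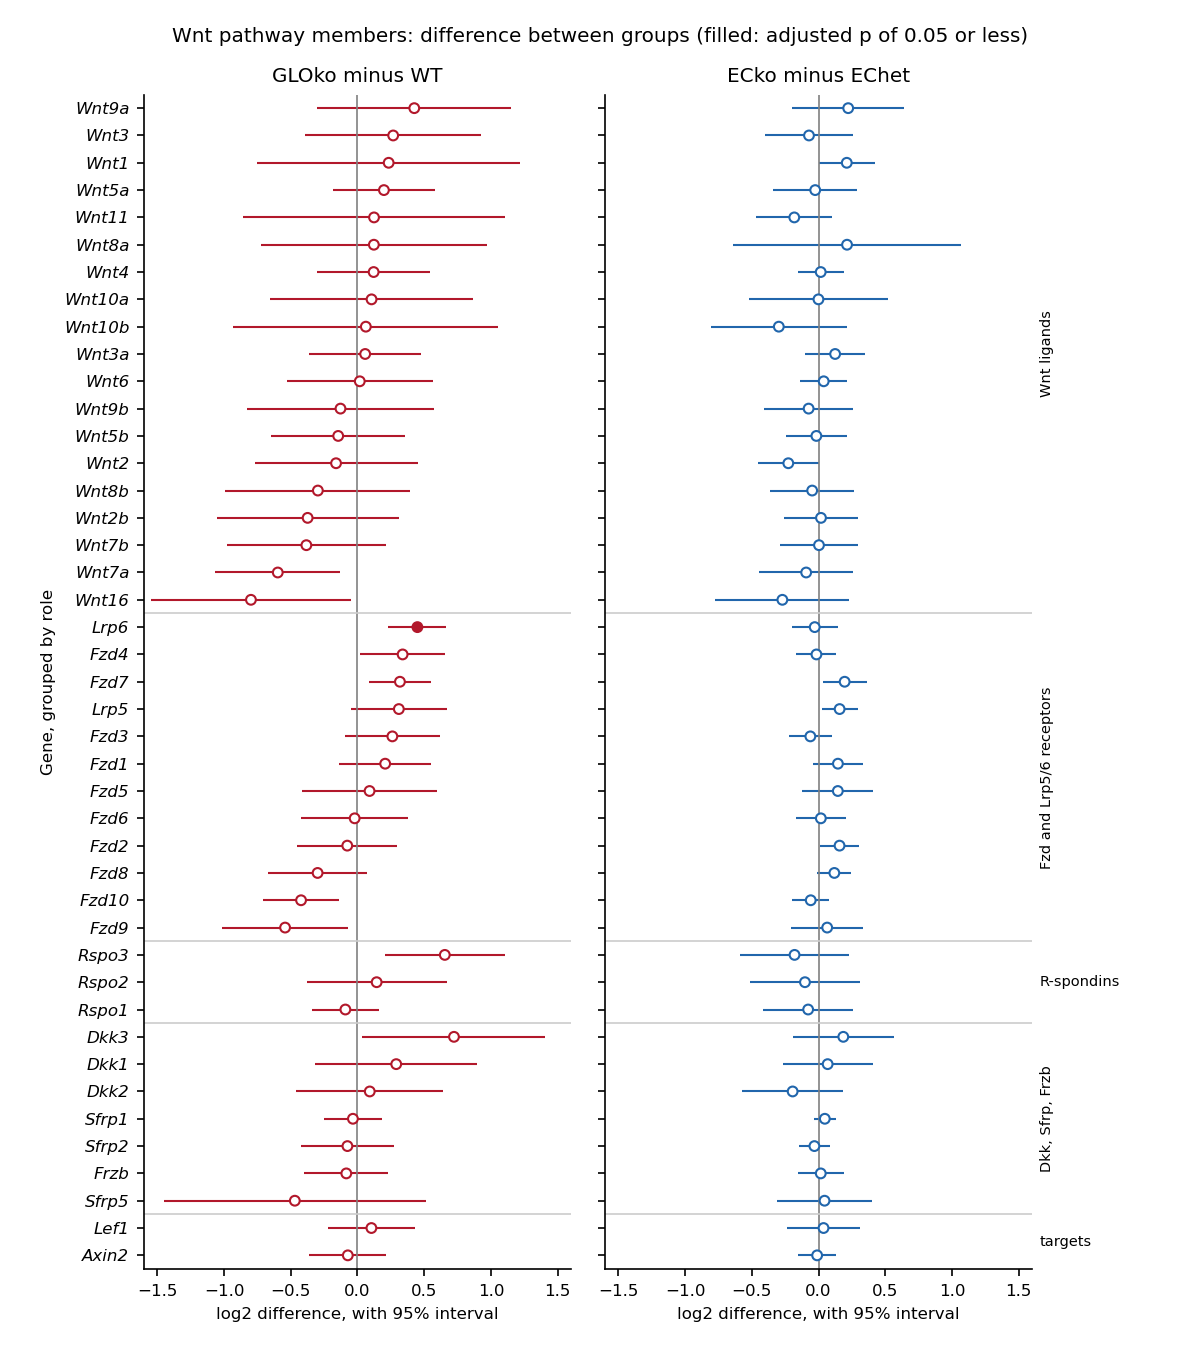
Log2 difference between group means for the 43 tested members (horizontal axis, limma estimate with its 95% interval) in GLOko against WT (left) and in ECko against EChet (right), with genes grouped by role on the vertical axis. Filled points passed the threshold of 0.05 on the adjusted p, and Lrp6 on the left (0.45) is the only one.

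Of the other receptors, Fzd7 had 50.9, 66.6, 58.7, 48.4, 43.3 and 47.2 FPKM in GLOko 1 to 6 and 39.8, 40.0, 45.4, 44.0, 44.0 and 40.9 in WT 1 to 6. That is 5 GLOko embryos above every WT embryo and a log2 difference of 0.32 (limma adjusted p = 0.0712, exact permutation p = 0.00866), which passed only without GLOko 5 among the embryos left out in turn (adjusted p = 0.0413). Fzd4, the receptor for norrin in vessels, was at 0.34 (limma adjusted p = 0.155) and Fzd9 at -0.54 (limma adjusted p = 0.125). Lrp5, the other co-receptor, had 8.18, 16.2, 12.0, 10.3, 12.0 and 8.31 FPKM in GLOko 1 to 6 and 7.94, 7.85, 10.3, 10.7, 9.29 and 7.58 in WT 1 to 6. In GLOko 3 embryos lay above every WT embryo and the other 3 within the WT range (log2 difference 0.31, limma adjusted p = 0.243, exact permutation p = 0.0996). Fzd2, the most abundant member in WT, had 35.4, 77.2, 69.5, 64.3, 56.3 and 43.3 FPKM in GLOko 1 to 6 and 52.1, 55.0, 71.6, 62.7, 59.9 and 58.1 in WT 1 to 6. GLOko embryos thus lay on both sides of WT, with a log2 difference of -0.08 (exact permutation p = 0.697), whose sign turned with some settings. Fzd1, Fzd3, Fzd5, Fzd6 and Fzd8 had differences of -0.30 to 0.26.

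The readouts of the canonical branch did not pass the test. Axin2 (chr11:108920349-108950783) had 10.9, 18.1, 13.5, 11.1, 10.1 and 11.7 FPKM in GLOko 1 to 6 and 12.2, 13.0, 12.6, 15.3, 13.3 and 12.7 in WT 1 to 6. In GLOko, 4 embryos lay below every WT embryo and GLOko 2 lay above all of them. The log2 difference was -0.07, with a 95% interval of -0.36 to 0.22 (limma adjusted p = 0.764, exact permutation p = 0.645), and without GLOko 2 it was -0.19 (limma adjusted p = 0.163). Lef1 (chr3:131110471-131224356) had 5.99, 4.70, 7.69, 6.41, 7.04 and 7.02 FPKM in GLOko 1 to 6 and 5.08, 6.65, 4.45, 6.42, 5.98 and 8.37 in WT 1 to 6. All GLOko values lay within the WT range, and the difference was 0.10 with an interval of -0.22 to 0.43 (limma adjusted p = 0.693, exact permutation p = 0.506). A mean difference of 1 log2 unit lay outside both intervals.

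Among the 19 ligands, none was called, and their median log2 difference was 0.06. Wnt7a, a ligand of the neural tube, was at -0.60 (limma adjusted p = 0.0925) and did not pass, with 4 GLOko embryos below every WT embryo. Wnt16 was at -0.80 (limma adjusted p = 0.152) from 8 to 121 reads per library. All 6 markers of neural progenitors and neurons were lower in GLOko, and 3 were called (Sox1, Nes and Neurog2), against 10.4% of all genes tested. The list's mean lay 0.26 to 1.51 below the WT mean in the 6 GLOko embryos. Whether this bears on Wnt7a was not tested. Of the antagonists, Dkk3, a divergent Dickkopf protein that does not act on LRP6 in the usual way, was at 0.72 (limma adjusted p = 0.155), and at 0.42 without GLOko 2 (limma adjusted p = 0.146). Dkk1, the LRP5/6 inhibitor, was at 0.29, Dkk2 at 0.09, Sfrp5 at -0.47, and Frzb, Sfrp1 and Sfrp2 were between -0.08 and -0.03. The 95% interval lay within 1 log2 unit of 0 for 32 of the 43 members and within 0.5 for 9.

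**Figure D2:**
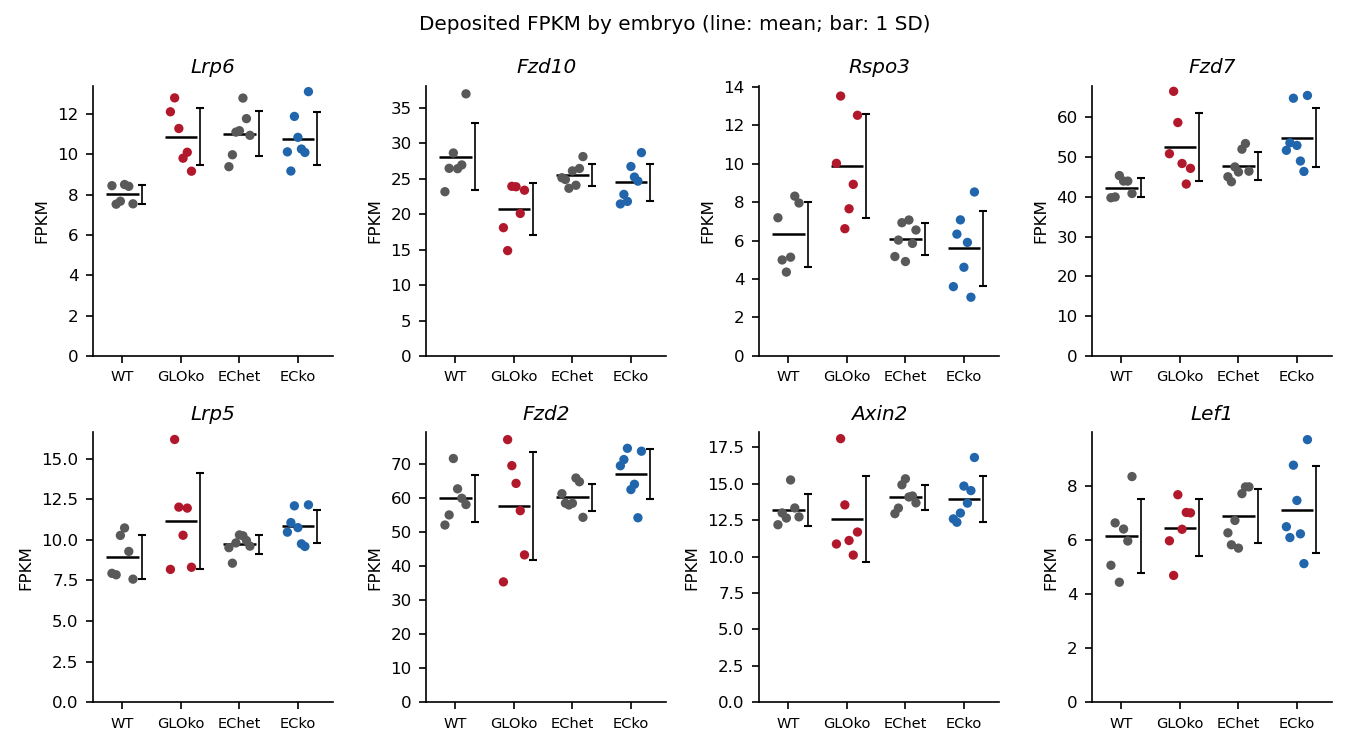
Deposited FPKM (vertical axis) of 8 members in each embryo of the 4 groups (horizontal axis), with the mean as a line and 1 SD as a bar. Lrp6 is 9.17 to 12.8 FPKM in GLOko and 7.53 to 8.51 in WT without overlap, and Axin2 and Lef1 overlap between the groups of each comparison.

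GLOko embryos differed from one another more than WT embryos did. The SD of the log2 values was larger in GLOko than in WT for 41 of 43 members (95.3%), and for 86.7% of all genes tested. Its median was 0.485 in GLOko and 0.263 in WT for the members, and 0.432 and 0.208 for all genes. A wider spread was thus shared by most of the transcriptome.

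GLOko 2 stood apart in the members. Here and below, extremes were counted over the 43 tested members only, with no count over all genes. GLOko 2 was the highest of the 12 embryos in 16 members and the lowest in 8, and 11 members lay at least 1 log2 unit from the WT mean, 6 above and 5 below. Wnt1, the roof plate and midbrain ligand, was 32.4 FPKM in GLOko 2 and 3.39 to 7.47 in the other 5 GLOko embryos, against 4.35 to 7.80 in WT. Wnt3 was 6.39 FPKM (others 1.62 to 2.78), Wnt9a 4.89 (others 1.11 to 2.45), Wnt11 5.33 (others 0.356 to 3.23) and Dkk3 23.3 (others 3.85 to 8.61). Rspo3 was the sixth of these. The members below were Wnt7b at 2.06 FPKM (WT 4.75 to 7.33), Wnt7a at 2.10, Wnt8b at 1.11, Wnt5b at 3.62 (WT 7.18 to 11.0) and Wnt9b, all of them ligands. Axin2 was also highest there, at 18.1 FPKM. The mean of 6 markers of the dorsal neural tube and roof plate was 0.98 above the WT mean in GLOko 2 and -0.33 to 0.19 in the other GLOko embryos, that of the hypoxia list was 3.31 and that of 10 tailbud markers was -1.51. The mean of 7 markers of the midbrain-hindbrain boundary was -0.08. That of the cardiomyocyte markers was 2.21 (1.29 to 2.07 in GLOko 3 to 6), and that of the yolk sac endoderm markers was -1.58. The remaining lists were at -0.74 (primitive erythroid), -0.47 (forebrain), -0.45 (somite and limb mesenchyme), -0.26 (neural progenitor and neuron) and 0.30 (surface epithelium). The endothelial markers summed to 132 FPKM there, against 76.1 to 86.4 in WT, and the 5 macrophage markers to 10.2, against 0.722 to 2.48. The part of these lists in the values of GLOko 2 was not tested. Without GLOko 2, 2 members were called, Lrp6 and Fzd9, where 2491 of all 17523 genes tested were called.

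Several of these ligand genes lie beside another one, and the neighbours did not move by the same amount in GLOko 2. Of the 4 pairs of members less than 100 kb apart, Wnt10b and Wnt1 (11.7 kb apart) were 0.43 and 2.60 above the WT mean in log2. Wnt9b and Wnt3 (24.3 kb) were at -1.02 and 1.68, Wnt3a and Wnt9a (16.2 kb) at 0.48 and 1.87, and Wnt6 and Wnt10a (6.2 kb) at 0.18 and 0.81.

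GLOko 1 departed in another way, and was the lowest of the 12 embryos in 11 members. Sfrp5 was 0.526 FPKM there (other GLOko 2.40 to 6.62, WT 2.31 to 5.69), Wnt11 0.356 (WT 1.28 to 2.32), Wnt2 3.78 (WT 7.22 to 10.8) and Wnt6 9.45 (WT 15.4 to 26.7). Wnt10b had 0 reads. Fzd3, by contrast, was 20.5 FPKM against 8.66 to 10.5 in WT. Sfrp5, Wnt2 and Wnt11 are known from the inflow region and the heart. The GLOko 1 library had the fewest genes with reads (16826 at equal depth) and the low cardiomyocyte markers given above. WT 4, the other library of that table with few such markers, had 5.69 FPKM of Sfrp5, 10.1 of Wnt2 and 1.28 of Wnt11. Whether the low marker levels or the low count of genes with reads bear on these values was not tested.

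**Figure D3:**
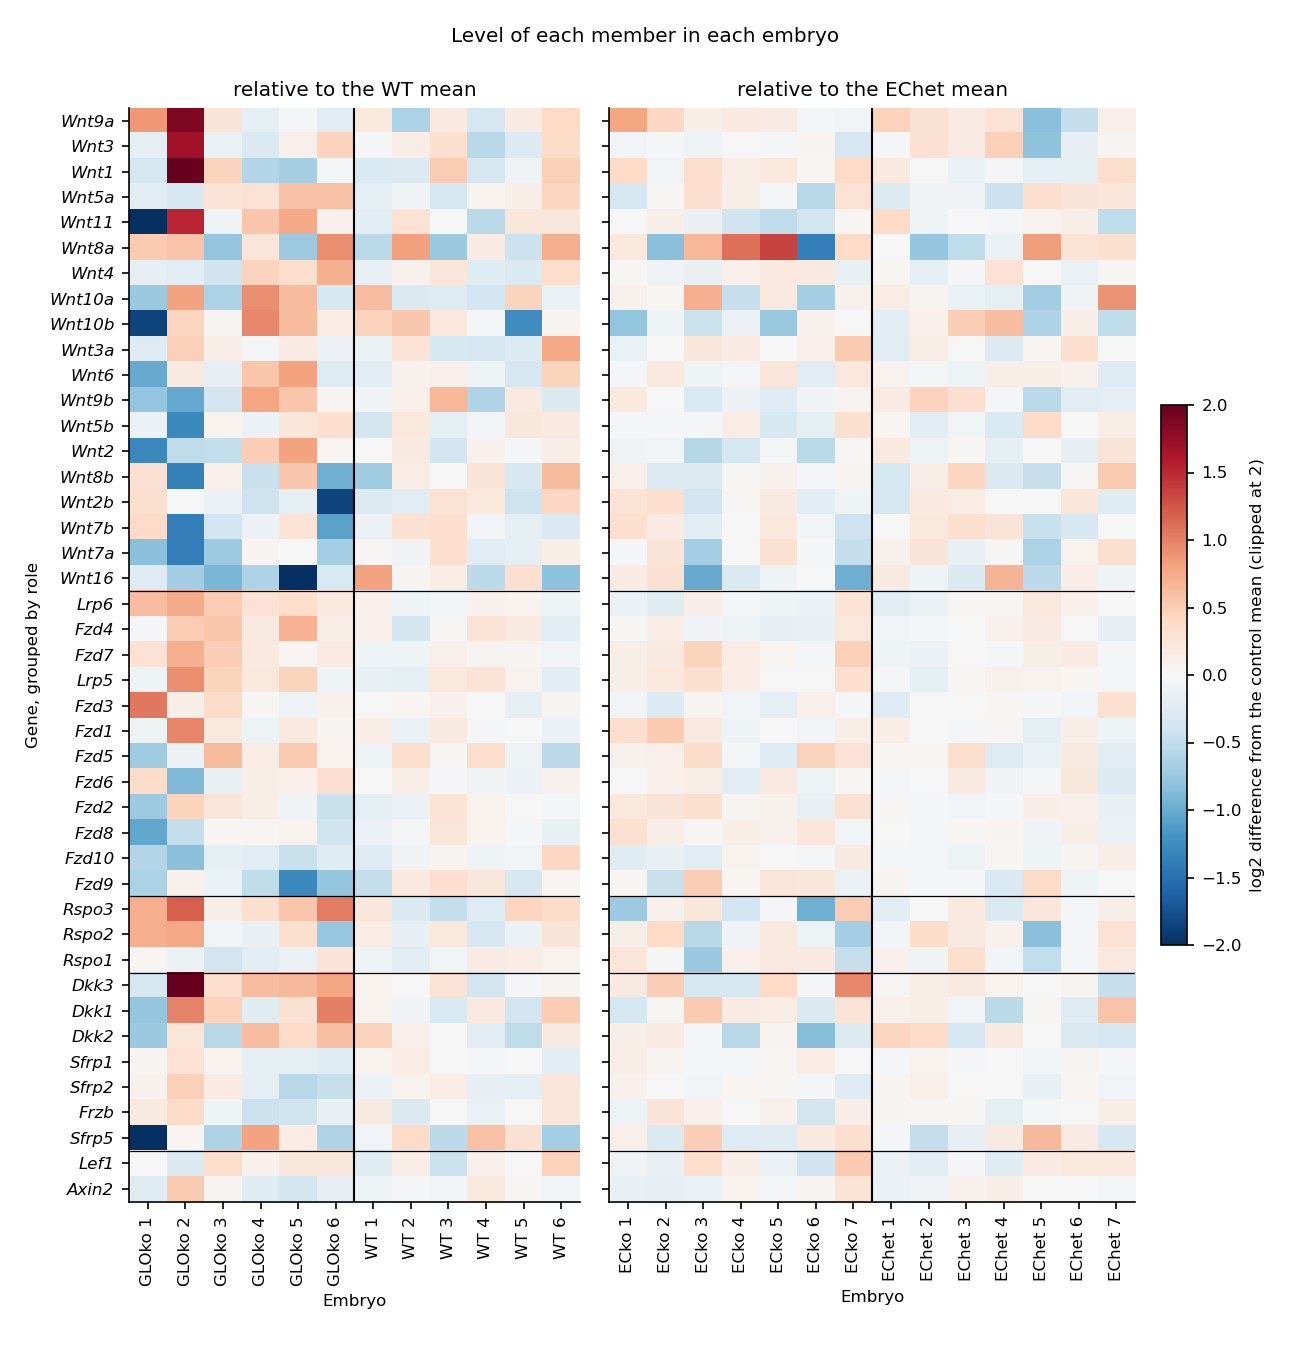
Log2 difference of each of the 43 tested members (rows, by role) from the mean of the controls in every embryo (columns), red above and blue below and clipped at 2. GLOko 2 and GLOko 1 hold most of the dark cells, with Wnt1 in GLOko 2 at 2.60 and Sfrp5 in GLOko 1 at -2.60, and the ECko and EChet columns are paler.

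**Figure D4:**
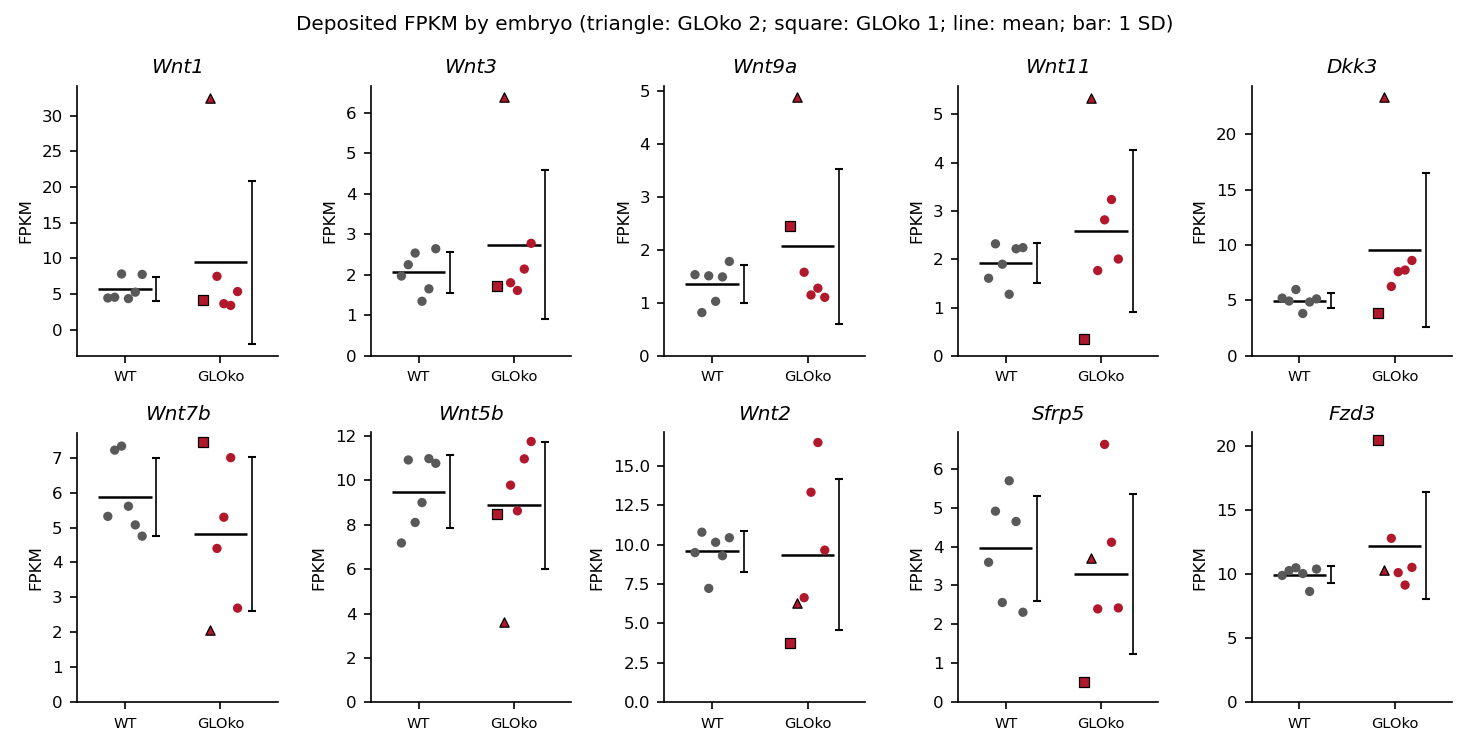
Deposited FPKM (vertical axis) of 10 members in each WT and GLOko embryo, with GLOko 2 as a triangle, GLOko 1 as a square, the mean as a line and 1 SD as a bar. GLOko 2 is highest for Wnt1 (32.4 FPKM), Wnt3, Wnt9a, Wnt11 and Dkk3 and lowest for Wnt7b and Wnt5b, and GLOko 1 is lowest for Wnt2, Wnt11 and Sfrp5 and highest for Fzd3.

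The endothelial knockout was compared with EChet embryos to find whether loss of Traf7 in the Tie2-Cre lineage changed the same genes. By limma, 0 of the 43 members were called, where 0.0971% of all genes (17) were, and limma-voom also called 0 members. At an unadjusted p under 0.05 there were 4 members, against 14.5% of all genes. The log2 differences ran from -0.30 (Wnt10b) to 0.22 (Wnt9a) with a median of 0.00, and 42 of 43 intervals lay within 1 log2 unit of 0 and 34 within 0.5. No member was without overlap, against 0.508% of all genes. The 8 endothelial markers summed to 80.3 to 93.0 FPKM in ECko and 73.2 to 88.5 in EChet (0 of 8 called, limma, and 3 at an unadjusted p under 0.05), so that RNA of the targeted lineage was present in all embryos.

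The smallest p belonged to receptors. Fzd7 had 51.7, 53.6, 64.8, 53.0, 49.0, 46.4 and 65.5 FPKM in ECko 1 to 7 and 45.1, 43.8, 47.6, 46.3, 52.0, 53.4 and 46.5 in EChet 1 to 7 (log2 difference 0.20, limma adjusted p = 0.271, exact permutation p = 0.0309). Lrp5 had 10.5, 11.1, 12.1, 10.8, 9.75, 9.59 and 12.2 FPKM in ECko 1 to 7 and 9.52, 8.56, 9.81, 10.3, 10.3, 9.96 and 9.61 in EChet 1 to 7 (0.16, limma adjusted p = 0.277, exact permutation p = 0.0251). Both were a little higher in 6 of 7 ECko embryos than the EChet mean, and the groups overlapped. Fzd2 had 69.5, 71.3, 74.6, 62.5, 64.0, 54.2 and 73.8 FPKM in ECko 1 to 7 and 61.3, 58.5, 58.0, 58.5, 65.9, 64.8 and 54.3 in EChet 1 to 7 (0.16, limma adjusted p = 0.318, exact permutation p = 0.0565). Wnt1 was the ligand of smallest p (0.21, limma adjusted p = 0.339).

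The co-receptor that rose in GLOko did not do so here. Lrp6 had 10.1, 9.18, 11.9, 10.9, 10.3, 10.1 and 13.1 FPKM in ECko 1 to 7 and 9.39, 9.99, 11.1, 11.2, 12.8, 11.8 and 11.0 in EChet 1 to 7. The ranges lay on each other, with a log2 difference of -0.03 and an interval of -0.20 to 0.14 (exact permutation p = 0.744). Fzd10 had 21.5, 22.8, 21.8, 26.8, 25.3, 24.7 and 28.7 FPKM in ECko 1 to 7 and 25.2, 24.9, 23.7, 26.1, 24.1, 26.5 and 28.2 in EChet 1 to 7 (-0.06, exact permutation p = 0.398). Rspo3 had 3.61, 6.34, 7.08, 4.61, 5.91, 3.06 and 8.53 FPKM in ECko 1 to 7 and 5.17, 6.03, 6.93, 4.91, 7.07, 5.85 and 6.55 in EChet 1 to 7 (-0.18, exact permutation p = 0.417). The ECko values of Rspo3 spread on both sides of the controls. The hypoxia list had 0 of 10 genes called in ECko (limma), where only 0.0971% of all genes were, and a median log2 difference of 0.98. At an unadjusted p under 0.05 there were 9 of the 10, against 14.5% of all genes. The mean of the hypoxia list in ECko 1 to 7 lay 0.952, 2.08, 1.92, -0.02, 0.645, 0.10 and 2.19 from the EChet mean. The part of this list in the Lrp6 values was not tested.

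Axin2 had 12.6, 12.4, 13.0, 14.8, 13.7, 14.5 and 16.8 FPKM in ECko 1 to 7 and 12.9, 13.3, 14.9, 15.3, 14.1, 14.2 and 13.7 in EChet 1 to 7. Lef1 had 6.51, 6.11, 8.79, 7.48, 6.25, 5.14 and 9.74 FPKM in ECko 1 to 7 and 6.28, 5.84, 6.74, 5.72, 7.73, 7.98 and 7.99 in EChet 1 to 7. In ECko, 1 embryo lay above and 2 below every EChet embryo for Axin2, and 2 above and 1 below for Lef1, with log2 differences of -0.01 (interval -0.15 to 0.13, exact permutation p = 0.882) and 0.04 (interval -0.24 to 0.31, exact permutation p = 0.794). ECko 7 was the highest of the 14 embryos in 10 members, Lrp6, Fzd7, Lrp5, Axin2 and Lef1 among them. The spread of ECko was close to that of EChet (median SD 0.227 and 0.206, larger in 27 of 43 members, or 62.8%, against 68.4% of all genes).

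The effects of the global and the endothelial knockout were then set against each other in 1 fit of all 26 libraries. The controls differ as well, being wild type in the global comparison and heterozygous carriers of Tie2-Cre in the endothelial one. Of the 43 members, 1 differed (2.33%, against 2.26% of all genes), and it was Lrp6. Its difference was 0.48 larger in the global comparison (95% interval 0.22 to 0.74, limma adjusted p = 0.0451). This was close to the threshold: it stayed past it without 9 of the 26 embryos in turn (GLOko 2 to 6, ECko 3 and 7, EChet 1 and 2) and was lost without each of the other 17 (adjusted p 0.0197 to 0.0779). At an unadjusted p under 0.05 there were 6 members, against 21.6% of all genes. For Rspo3 the difference was 0.83 (limma adjusted p = 0.107) and for Fzd10 it was -0.36 (limma adjusted p = 0.142). For Fzd7 it was 0.12 with an interval of -0.15 to 0.39. The tables were scaled separately, and levels were not tested across them. Set side by side, Lrp6 was 7.53 to 8.51 FPKM in WT, 9.17 to 12.8 in GLOko, 9.39 to 12.8 in EChet and 9.18 to 13.1 in ECko, where genotype and table cannot be told apart.

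The rest of the pathway was read from a list of 77 other genes, of which all were tested. In GLOko 11 were called (14.3%, against 10.4% of all genes), 7 higher and 4 lower. In ECko 0 were called by limma, where only 0.0971% of all genes were, and 0 by limma-voom. At an unadjusted p under 0.05 there were 3 in ECko, against 14.5% of all genes. The median log2 difference of the list was 0.00 in GLOko. On the side of the sending cell, Wls, the carrier that takes Wnts to the cell surface, rose from 19.5 ± 3.05 to 32.0 ± 9.35 FPKM (log2 difference 0.70, limma adjusted p = 0.0248). At the receiving membrane, Gpc4, a glypican that holds Wnts, rose from 17.0 ± 2.13 to 25.8 ± 4.25 FPKM (0.61, limma adjusted p = 0.0145), and Kremen1, a Dkk receptor, rose by 0.39 (limma adjusted p = 0.0465). Sostdc1, a secreted inhibitor of BMP and Wnt signalling, rose from 5.00 ± 0.607 to 7.94 ± 1.97 FPKM (0.65, limma adjusted p = 0.0237). Wls and Gpc4 are known to aid Wnt signalling, Kremen1 and Sostdc1 to restrain it. The Kremen1 call stood only without GLOko 1 or GLOko 2 among the 12 embryos left out in turn (adjusted p up to 0.103). That of Wls was lost without WT 1, 2, 4 or 5 (up to 0.0608), and that of Sostdc1 without WT 2, 4, 5 or 6 (up to 0.0567).

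A list of the destruction complex, dishevelled, the Nkd genes and the tankyrases held 16 genes. Of these 4 were called, and the share over all genes was 10.4%. Axin1, the scaffold of the complex, was 11.1 to 19.9 FPKM in GLOko against 21.2 to 24.4 in WT (log2 difference -0.44, limma adjusted p = 0.0441). Apc2 fell from 1.17 ± 0.298 to 0.534 ± 0.205 FPKM (log2 difference -1.03, limma adjusted p = 0.0326). The tankyrases, enzymes that mark axin for degradation, both rose. Tnks was 10.4 to 20.7 FPKM in GLOko against 7.46 to 8.45 in WT (0.80, limma adjusted p = 0.0127), and Tnks2 47.4 to 73.5 against 37.8 to 42.1 (0.54, limma adjusted p = 0.0139). None of these 4 called genes overlapped between the groups, and 8.71% of all genes tested did not either. Leaving out embryos in turn, the calls of both tankyrases held in all 12 cases, that of Axin1 only without GLOko 1, 3, 4 or 5 (adjusted p up to 0.0934), and that of Apc2 was lost without GLOko 5 or WT 1, 2, 3 or 6 (up to 0.0708).

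Against the same 10.4% of all genes, 1 of 12 nuclear factors was called, namely Pygo2, a co-activator bound to beta-catenin through Bcl9, which fell by 0.48 (limma adjusted p = 0.0186). Of 12 planar cell polarity genes 1 was called, namely Prickle1, at 11.9 to 18.0 FPKM in GLOko against 8.69 to 11.0 in WT (0.63, limma adjusted p = 0.00733). Of 18 further canonical targets 1 was called, namely Ccnd1, the cyclin D1 gene, at 27.9 to 52.8 FPKM against 63.9 to 75.8 (-0.64, limma adjusted p = 0.0114). The other 17 did not pass, and the median of the 18 was 0.07. The calls of Gpc4, Pygo2, Prickle1 and Ccnd1 held without each of the 12 embryos in turn. Without GLOko 1 and WT 4 together, the calls of Tnks, Apc2, Prickle1 and Ccnd1 held, and those of the other 7 were lost: Tnks2 (limma adjusted p = 0.0532), Gpc4 (0.0594), Pygo2 (0.0634), Kremen1 (0.0762), Sostdc1 (0.0799), Axin1 (0.0900) and Wls (0.0905). With detected genes as a covariate the same 7 and Apc2 were lost. Without GLOko 1, 2 and 6, Axin1 was at -0.20 (limma adjusted p = 0.0612) and Sostdc1 at 0.47 (limma adjusted p = 0.0613), neither called, and Pygo2 at -0.25, still called. In the difference of the effects 3 of the 77 genes passed (3.90%, against 2.26% of all genes): Gpc4 (0.62, limma adjusted p = 0.0375), Pygo2 (-0.44, limma adjusted p = 0.0375) and Daam1 (0.44, limma adjusted p = 0.0258), a formin that acts below dishevelled, which was at 0.24 in GLOko and -0.20 in ECko without being called in either. Without GLOko 1 and WT 4, Daam1 still passed, and Gpc4 (0.57, limma adjusted p = 0.0764), Pygo2 (-0.39, limma adjusted p = 0.0696) and the member Lrp6 (0.46, limma adjusted p = 0.0792) did not.

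**Figure D5:**
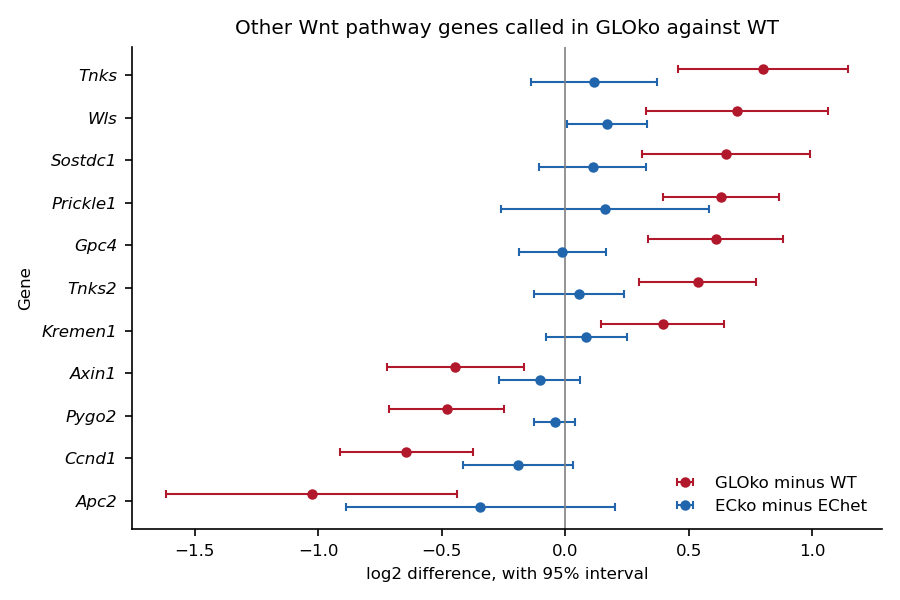
Log2 difference (horizontal axis, limma estimate with its 95% interval) of the 11 other Wnt pathway genes (vertical axis) called in GLOko against WT, in red for that comparison and in blue for ECko against EChet. Tnks at 0.80 and Apc2 at -1.03 are the outermost red points, and 0 of the 11 were called in ECko, where only 0.0971% of all genes were.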

How the data were processed

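The authors isolated total RNA from single E9.5 embryos, had libraries made and sequenced commercially, and aligned reads by STAR to mm10 (versions of STAR and of the annotation are not given in the sources used here). They deposited FPKM in 1 table per comparison, which were used as the unit of all values here. FPKM times gene length came out as whole multiples of 1 read for 100% of values (within 0.01 of a step), which gave the reads per gene and the depth (limma-voom on these reads called 2038 genes in GLOko, 8 in ECko). Gene IDs matched GENCODE vM21 for 99.8%.

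Each library's FPKM were rescaled by a median-of-ratios factor (from genes with a mean of at least 1 FPKM and no value of 0), 0.1 was added, and genes with a mean of at least 0.1 FPKM were fitted on the log2 scale with limma 3.58.1 (R 4.3.3, trend and robust) in each table, and in 1 fit of 26 libraries for the difference of the effects. Fold changes are on this scale, which understates those of low genes. Adjusted p values are Benjamini-Hochberg over all genes tested, and tests are two-sided. For single members, every division of the embryos into groups was enumerated (exact permutation test, unadjusted). The authors' own differential test was DESeq2, which was not run here. The recovered reads were tested with limma-voom instead. Scripts were tested on simulated data.

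Values in every embryo are given for members called in either comparison, for Axin2 and Lef1, and for the 3 members of smallest p in each comparison, other pathway genes are named where called, and all remaining members are given by role. Embryos named because they stood apart, and the members shown for them, were chosen after their values were seen. The members and lists were chosen with earlier results of these data known. Embryos are separate animals, and replicate numbers were not treated as pairs. Alternatives were another pseudocount, filter or scaling, plain moderation, limma-voom on the recovered reads, detected genes as a covariate, a replicate block, and leaving out embryos. Python 3.11.15, numpy 2.4.6, pandas 2.3.3, SciPy 1.17.1 and matplotlib 3.10.9 were used for the rest.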

Additional observations from a re-analysis of the deposited data

Results flagged for a closer look

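Within groups of 6 or 7 embryos, 172 tests for a single far value (Dixon's gap over range) marked 13 values in 9 members, where chance marks about 1 test in 20. GLOko 2 held 5 of them, all of them the highest of its group: Wnt1 at 32.42 FPKM (next 7.47), Dkk3 at 23.31 (next 8.61), Fzd1 at 31.49 (next 19.2), Wnt3 at 6.386 (next 2.78) and Wnt9a at 4.885 (next 2.45). GLOko 1 was the highest of its group for Fzd3 at 20.45 FPKM. In WT, Axin2 was highest in WT 4 at 15.25 FPKM, and Fzd3 was lowest in WT 5 at 8.662. EChet 7 held 3, with Dkk3 low at 3.512 FPKM, Fzd3 high at 17.94 and Wnt10a high at 0.8609. Wnt4 was high in EChet 4 at 4.739 FPKM and Wnt3 low in ECko 7 at 1.348.

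The effect of the global knockout differed from that of the endothelial one for 4 genes by the limma test of the difference. Lrp6 differed by 0.4779 on the log2 scale (limma adjusted p = 0.0451), Gpc4 by 0.6225 (limma adjusted p = 0.0375), Daam1 by 0.436 (limma adjusted p = 0.0258) and Pygo2 by -0.4369 (limma adjusted p = 0.0375). With each of the 26 embryos left out in turn, these calls held in 9, 15, 20 and 13 cases, respectively.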

How the results depend on the processing

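With 1 member called in GLOko against WT, 3 were called (Lrp6, Fzd10 and Rspo3) with a filter of at least 1 FPKM and with limma-voom on the reads, 2 (Lrp6 and Dkk3) without GLOko 1, 2 and 6, and 0 with detected genes as a covariate, with a replicate block, or without GLOko 1 and WT 4. Leaving out embryos in turn gave 1 to 4, where 731 to 2491 of all genes were called. In the difference of the effects 1 member became 0 with no filter, with plain moderation, with the covariate, with the block, without GLOko 1, 2 and 6, and without GLOko 1 and WT 4, and leaving out embryos gave 0 to 1. Of the other pathway genes in GLOko (11), 3 were called with the covariate and 4 without GLOko 1 and WT 4, and leaving out embryos gave 6 to 15. The cause was not tested. In ECko 0 members and 0 pathway genes were called under every alternative run.

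Directions turned only in differences that were not called. The Fzd2 difference in GLOko was 0.1367 with the covariate, 0.1047 without GLOko 1, 2 and 6 and 0.0662 without GLOko 1 and WT 4, and that of Axin2 was 0.0034 (0.014 in the difference of the effects) without GLOko 1 and WT 4. With the covariate, Axin2 in ECko was 0.0413 and Lef1 -0.0028. Leaving out embryos gave -0.1743 to 0.0548 for Fzd2 in GLOko, and in ECko -0.078 to 0.0077 for Lrp6, -0.0573 to 0.0161 for Axin2, -0.0425 to 0.1105 for Lef1, -0.0603 to 0.032 for Gpc4 and -0.0073 to 0.0928 for Tnks2. For Lef1 the difference of the effects was -0.0198 to 0.1578.

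Deviations of same-numbered embryos over all genes had correlations of -0.05 to 0.09 in the GLOko table and -0.08 to 0.11 in the ECko table. A small effect shared by such embryos could give values of this size. The labels do not say what the numbers mark, so that whether they pair embryos is not known. With the block, the count over all genes went from 1833 to 1010 in GLOko, from 17 to 0 in ECko and from 382 to 317 in the difference, Lrp6 in GLOko had a limma adjusted p of 0.05004, and 8 of the other pathway genes were called.

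Over all genes, the 1833 calls in GLOko became 1208 with no filter, 456 with the covariate and 542 without GLOko 1 and WT 4. They became 2174 of 12113 at 1 FPKM or more, 2038 of 17573 with limma-voom and 1967 of 17504 without GLOko 1, 2 and 6. The 17 in ECko became 5 with no filter, 1 with plain moderation and 8 with limma-voom. The 382 of the difference became 81, 218 and 627 with these, 653 at 1 FPKM or more, 75 without GLOko 1, 2 and 6 and 66 without GLOko 1 and WT 4. With single embryos left out in turn, the calls over all genes were 3 to 51 in ECko and 21 to 1227 in the difference.

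Of the tested ligands, Wnt8a, Wnt10b, Wnt10a and Wnt16 had the fewest reads per library on average (0 to 23, 0 to 40, 10 to 43 and 8 to 121).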
